A study of Homo sapiens with 3 samples.

Results

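Interferon-stimulated genes were examined in A549, an established line of human lung adenocarcinoma cells, after exposure to cordycepin or to cordyceps. The set was a list of 44 genes known from the literature to be induced by interferons, and it included the interferon genes IFNB1 and IFNL1. A member was represented by the probe with its symbol that had the highest mean log2 signal over the arrays, as were all 22435 genes named on the array. Of the 44 members, 42 had a probe that could be named, and IFI27 and SAMD9L were not analysed here. Well above background were 35 members on at least 1 array and 30 on all 3. EPSTI1, IFI44L, RSAD2, SAMD9, XAF1, IFNB1 and IFNL1 were well above background on none, so only a bound on their level was available.

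Interferons are secreted proteins that alert cells to infection. Type I interferons (IFN-α, IFN-β) and type III interferons (IFN-λ) bind different receptors, which activate the kinases JAK1 and TYK2 and lead to phosphorylation of STAT proteins, STAT2 among them. Together with IRF9 these proteins form the complex ISGF3, which binds a short element in gene promoters, the interferon-stimulated response element (ISRE). The induced genes encode sensors of foreign nucleic acid, enzymes that degrade or block viral RNA, membrane proteins that hold back virus particles, and regulators that amplify or end the response. Airway epithelial cells, from which lung adenocarcinomas can arise, respond to both types of interferon. Some of these genes can also be induced by IRF3 or IRF1 without secreted interferon.

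The control cells received 0.1% DMSO, the vehicle, and the treated cells received 60 μg/mL cordycepin, a nucleoside analog that lacks the 3′ hydroxyl group of adenosine, or 100 μg/mL cordyceps, a preparation named after the fungus genus and not described further in the labels. All cells were exposed for 48 h, and the shared growth medium contained serum, antibiotics, nicotinamide, troglitazone and zinc sulfate. RNA of each condition was hybridized to 1 array (n = 1), so no test between conditions was possible and every ratio below compares 2 arrays. In RNA from a whole culture, fewer cells of a type and less RNA per cell cannot be told apart. The methods describe Cy3 and Cy5 labels for vehicle and cordycepin RNA, whereas the deposited files and the labels hold Cy3 as the only channel of every array.

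Signals are given as background-subtracted intensities of the scanner software, and ratios as log2 differences after each array was reduced by its 75th percentile, which was a signal of 260.1 for control, 224 for cordycepin and 260.2 for cordyceps. A member was called higher or lower at 2-fold or more. Where 1 of the 2 arrays did not detect the probe, the ratio is a bound against the probe's own signal there or the lowest signal well above background on that array, whichever was higher. The latter was 18.6 for control, 21.8 for cordycepin and 34.5 for cordyceps. In place of replicate error, the spread of single-probe log2 ratios between the 2 brightest probes of 3356 genes gave a technical SD of 0.25 for cordycepin over control, 0.20 for cordyceps over control and 0.28 for cordyceps over cordycepin. For the dimmest of these genes it was 0.34, 0.30 and 0.38. Repeated spots of a probe varied less, with a median SD of at most 0.06 on the log2 scale. Neither measure contains the variation between cultures. In a corner of the cordyceps array, 11.2% of the spots were flagged for their local background, against 0% in the same corner of the other arrays. Outside the corner the shares were 2.38% for control, 0.471% for cordycepin and 3.16% for cordyceps. This corner held the probes of 7 members (IFI6, OASL, IRF7, USP18, CMPK2, IFNB1 and IFNL1). The label A549 was checked with 8 epithelial and A549 markers, including KRT18, EPCAM and AKR1B10, and all 8 were detected on the 3 arrays. With cordycepin EPCAM was lower (log2 ratio -1.51) and the median of the 8 was -0.22 (all genes -0.04). With cordyceps all 8 were lower by at least 1 technical SD (all genes 39.2%), with KRT19 at -1.25 and a median of -0.52 (all genes -0.10). The part of these marker shifts in the ratios of the members was not tested. Of the leukocyte markers, CD3E was detected on no array, while CD14 (signals of 3387, 1559 and 2183 in control, cordycepin and cordyceps) and PTPRC (99.5, 71.8 and 72.9) were detected and neither was higher with treatment. The endothelial markers VWF and CDH5 were detected on the control and cordycepin arrays with signals of at most 61.3, and PECAM1 on none. The fibroblast marker COL1A1 was detected with signals of 337, 239 and 208, and COL1A2 and DCN were not.

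The promoters of the members were searched for the ISRE, the element that ISGF3 binds. RefSeq promoter windows of 300 bases (250 before the start site and 50 after it, GRCh38.p14) were available for 36 of the 44 members. The ISRE core GAAANNGAAA, searched on both strands with overlaps allowed, was found for 24 of these 36 members. In windows, the share was 28 of 47 (59.6%) for the members and 1255 of 35116 (3.57%) for all promoters. The GAS core TTCNNNGAA, a STAT-binding element, was found for 12 members and in 27.7% of their windows, against 7.66% of all windows. The windows shown next are 130 bases that end just before the start site, with the ISRE core on either strand in capitals. ISG15 (chr1:1013367-1013496, plus strand), HERC5 (chr4:88456989-88457118, plus strand), BST2 (chr19:17405631-17405760, minus strand), IFI44 (chr1:78649701-78649830, plus strand, 1 of 2 start sites in the table) and IFI6 (chr1:27672193-27672322, minus strand) are shown because they were the members with an ISRE core that were at least 2-fold higher with cordycepin. IFIT1 (chr10:89392493-89392622, plus strand) and IFITM3 (chr11:320861-320990, minus strand) are shown beside them, since they also hold the core and did not reach 2-fold. IFIT1 was still 1.71-fold higher with cordycepin (log2 ratio 0.77), whereas IFITM3 was lower (-0.27).
ISG15: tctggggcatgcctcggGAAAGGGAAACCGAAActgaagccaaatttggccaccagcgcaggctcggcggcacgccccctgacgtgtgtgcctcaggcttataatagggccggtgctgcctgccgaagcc
HERC5: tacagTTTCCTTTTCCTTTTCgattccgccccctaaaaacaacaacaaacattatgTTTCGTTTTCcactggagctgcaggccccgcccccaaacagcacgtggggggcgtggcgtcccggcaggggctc
BST2: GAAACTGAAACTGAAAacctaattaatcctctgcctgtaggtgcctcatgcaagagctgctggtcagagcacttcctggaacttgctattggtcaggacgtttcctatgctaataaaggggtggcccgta
IFI44: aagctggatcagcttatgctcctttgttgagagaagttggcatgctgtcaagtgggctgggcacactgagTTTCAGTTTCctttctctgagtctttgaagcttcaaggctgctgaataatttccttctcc
IFI6: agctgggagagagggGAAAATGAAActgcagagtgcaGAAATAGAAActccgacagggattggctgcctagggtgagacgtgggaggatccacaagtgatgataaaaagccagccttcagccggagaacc
IFIT1: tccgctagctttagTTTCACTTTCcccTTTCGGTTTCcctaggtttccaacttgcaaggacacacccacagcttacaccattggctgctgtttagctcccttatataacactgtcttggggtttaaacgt
IFITM3: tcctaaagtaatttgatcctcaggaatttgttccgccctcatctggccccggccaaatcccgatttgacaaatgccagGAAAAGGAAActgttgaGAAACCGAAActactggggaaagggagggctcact

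In ISG15 the matches overlapped and began at positions -113 and -107 from the start site, and in IFIT1 they began at -116 and -103. A pair of nearby cores was thus present both in a member called at 2-fold and in a member below that threshold. Among the 7 members called higher with cordycepin, 6 had a promoter in the table and 5 of these held an ISRE core, the exception being IFI16. TRIM22 was not in the table. Of the 28 other members tested, 21 had a promoter and 13 held the core, and all 7 members that were not detected had a promoter, of which 5 held it. A match describes letters in this window and does not show binding.

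**Figure D1:**
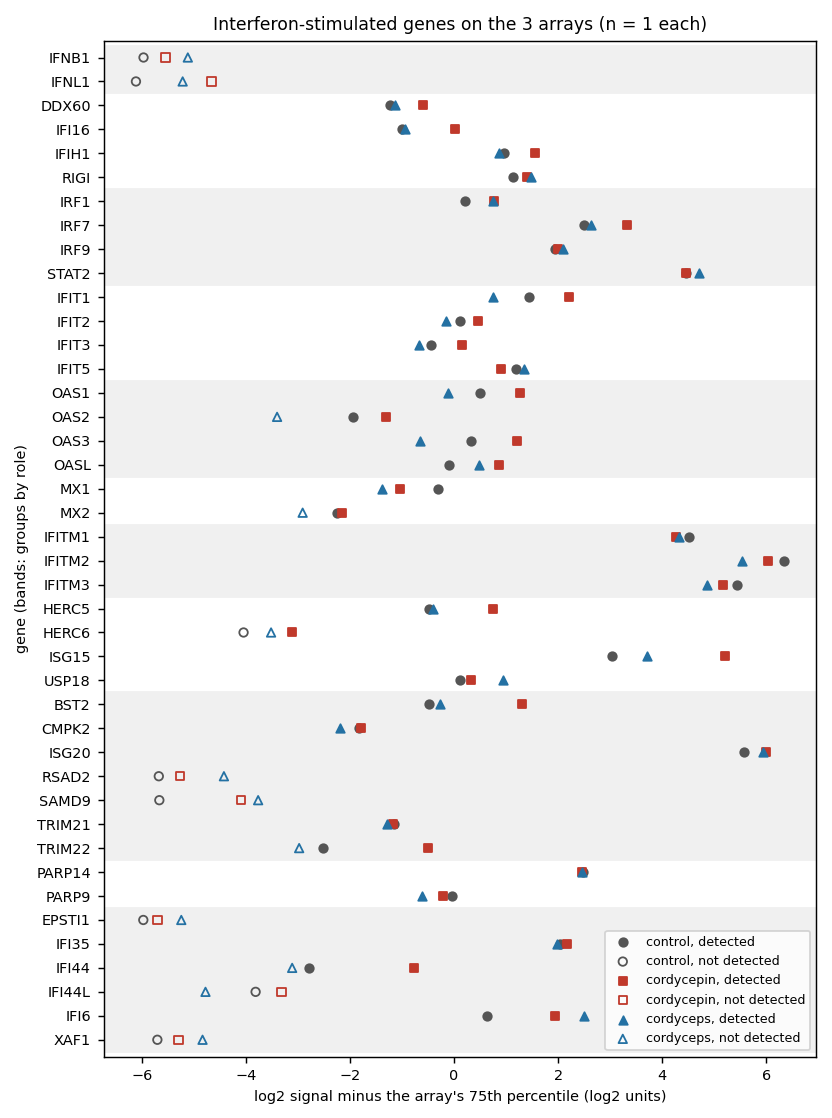
Level of the 42 interferon-stimulated genes with a named probe on the control (circles), cordycepin (squares) and cordyceps (triangles) arrays, as log2 signal minus the 75th percentile of the array (log2 units, n = 1 per condition); filled symbols were well above background and open ones were not. The square lies right of the other symbols for ISG15, IFI44, TRIM22, BST2 and HERC5, and the symbols of STAT2, IRF9, PARP14 and TRIM21 nearly coincide.

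With cordycepin, the ubiquitin-like modifier ISG15, the virus tether BST2, the E3 ligases TRIM22 and HERC5, the DNA sensor IFI16 and the interferon-induced proteins IFI44 and IFI6 were at least 2-fold higher than in the control. These were 7 of the 35 members tested, where 5.95% of all 15917 genes tested were at least 2-fold higher. No member was 2-fold lower (0 of 35), against 3.57% of all genes. The median log2 ratio of the 35 members was 0.56 and that of all genes was -0.04. Above 0 were 27 members (77.1%; all genes 45.1%). By at least 1 technical SD, 21 members were higher (60.0%; all genes 26.4%) and 5 were lower (14.3%; all genes 31.0%). Without members whose probe lay in the corner, 6 of 30 were called higher (all genes there 6.15%) and the median was 0.49.

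**Figure D2:**
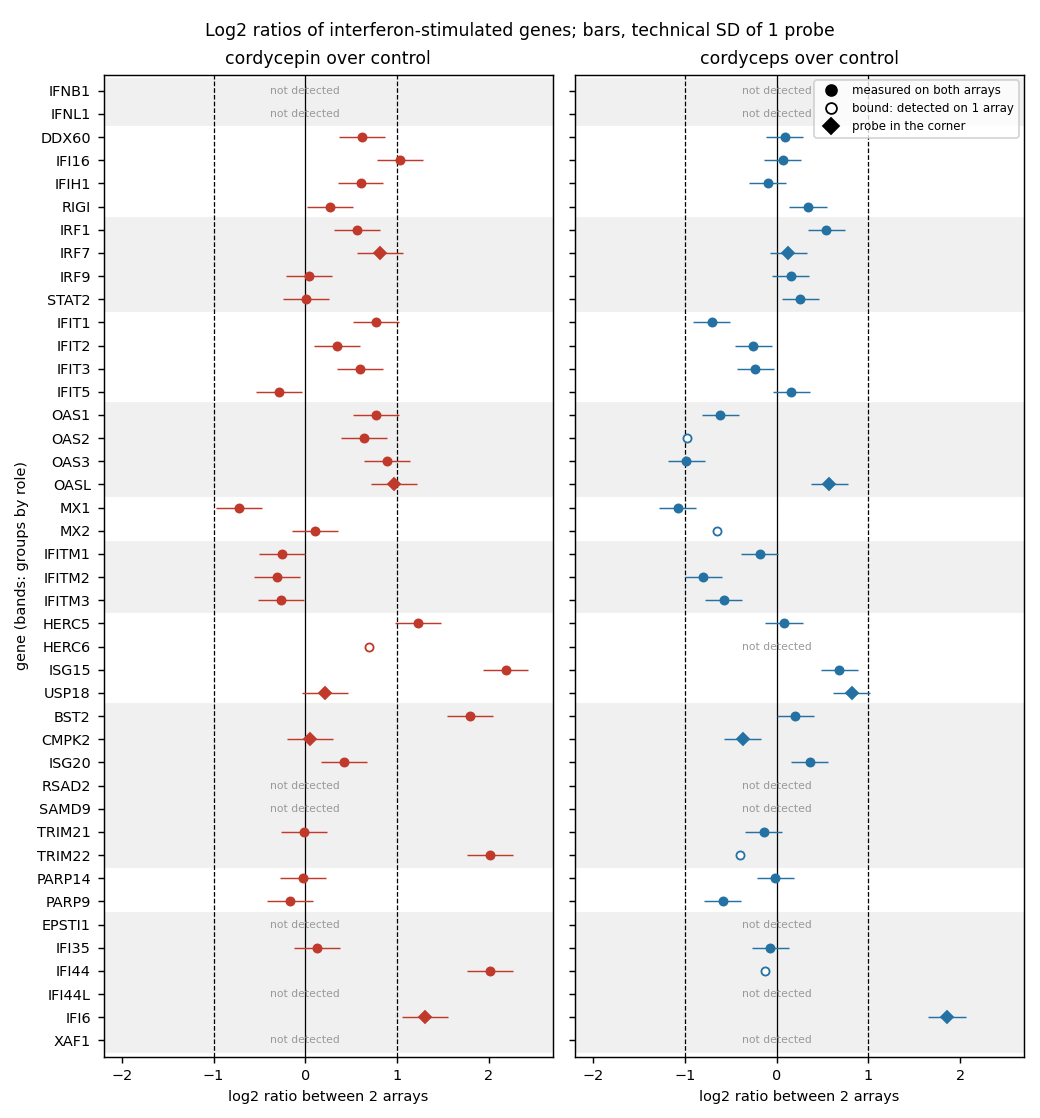
Log2 ratio of each member for cordycepin over control (left) and cordyceps over control (right), with genes in bands by role; bars are the technical SD of a single probe (0.25 left, 0.20 right), open circles are bounds, diamonds mark probes in the corner and dashed lines mark 2-fold. On the left 7 members lie right of the upper dashed line, and on the right IFI6 lies there alone and MX1 lies left of the lower one.

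The members of the ISG15 system attach this small protein to other proteins or remove it again. ISG15 had a signal of 2125 in the control, 8316 with cordycepin and 3414 with cordyceps. It was highest on the cordycepin array, 4.54-fold over the control (log2 ratio 2.18), and ranked 154 among the 15917 genes tested. HERC5, the ligase that attaches ISG15, had signals of 185, 375 and 196, which was 2.35-fold higher with cordycepin (log2 ratio 1.23) and within 1 technical SD of the control with cordyceps. HERC6, a related gene, was detected on the cordycepin array alone, with a signal of 26.0, which gave a bound of at least 1.62-fold. USP18, the protease that removes ISG15 and damps receptor signaling, had signals of 281, 281 and 496. It differed from the control by less than 1 technical SD with cordycepin (log2 ratio 0.21), and its value with cordyceps (0.82) came from a probe in the corner. The gene for the modifier and the gene for its ligase thus passed 2-fold with cordycepin, and the gene for its protease did not.

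Among the other antiviral effectors, BST2 (tetherin), which holds budding virus at the cell surface, had signals of 186 in the control, 556 with cordycepin and 215 with cordyceps. Its log2 ratio with cordycepin was 1.79, and its second probe gave 1.36, so both probes passed 2-fold. TRIM22, an E3 ligase that restricts several viruses, had signals of 45.5 and 159 in the control and cordycepin arrays, a log2 ratio of 2.02, and was not well above background on the cordyceps array. With normexp background correction the TRIM22 ratio was 1.11, and like IFI44 it was dim in the control, where the technical SD was larger. ISG20, an exonuclease that degrades RNA, had signals of 12395, 14267 and 15931 and log2 ratios of 0.42 with cordycepin and 0.36 with cordyceps. TRIM21, an antibody receptor inside the cell, and CMPK2, a mitochondrial nucleotide kinase, differed from the control by less than 1 technical SD with cordycepin. RSAD2 (viperin) and SAMD9 were not detected on any array, with signals of at most 19.2. Within this group the difference was thus carried by BST2 and TRIM22.

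IFI44, a cytoplasmic protein of unsettled function, had signals of 37.7 in the control and 131 with cordycepin, a 4.03-fold difference (log2 ratio 2.01), and was not well above background with cordyceps. Its control signal was dim, and with normexp background correction the ratio was 1.12. Its paralog IFI44L was detected on no array. IFI6, a membrane protein that counters apoptosis, had signals of 403, 858 and 1460 and was higher with both treatments, by 1.30 with cordycepin and by 1.86 with cordyceps on the log2 scale. The IFI6 probe lay in the corner. Its spot on the cordyceps array was flagged for its local background, 20.2% of its 238 measured neighbours were also at least 2-fold higher with cordyceps, and the median log2 ratio of these neighbours was 0.03. The part of the corner in the cordyceps value was not tested. IFI35, a leucine zipper protein, had signals of 1067, 1004 and 1018 and differed from the control by less than 1 technical SD with either treatment.

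Of 4 sensors of viral nucleic acid, IFI16 was called higher with cordycepin. IFI16, which binds DNA in the nucleus and cytoplasm, had signals of 129.6, 228 and 135.5 and was just past 2-fold with cordycepin (log2 ratio 1.03). Just below 2-fold were OASL (0.96) and OAS3 (0.89), and the second, dimmer OAS3 probe, detected with cordycepin alone and lying in the corner, gave a bound of 1.07. The RNA helicases IFIH1 (MDA5) and DDX60 had log2 ratios of 0.60 and 0.62 with cordycepin and were within 1 technical SD of the control with cordyceps. The DDX60 spot, outside the corner, was flagged for its local background on the cordyceps array. RIGI (RIG-I), whose signals were 573, 596 and 727, had a log2 ratio of 0.27 with cordycepin on its brightest probe and 0.34 on its second, and 0.34 with cordyceps. The first of these became 0.00 when the arrays were scaled by their medians.

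The OAS genes encode enzymes that sense double-stranded RNA and make the messenger that activates RNase L. OAS1 had signals of 366 in the control, 538 with cordycepin and 239 with cordyceps. OAS3 had signals of 326, 521 and 165. OAS1 and OAS3 were thus highest with cordycepin and lowest with cordyceps, with log2 ratios of 0.77 and 0.89 for cordycepin and of -0.61 and -0.99 for cordyceps, each beyond 2 technical SDs. OAS2 had signals of 67.7 and 90.7 in the control and cordycepin arrays (log2 ratio 0.64) and was not well above background with cordyceps (bound of -0.97). Its other detected probe, which lay in the corner, gave 0.18 for cordycepin and a bound of -0.13 for cordyceps. OASL, a relative that binds RIG-I and makes no such messenger, had signals of 242, 407 and 360 and was higher than the control with both treatments (0.96 and 0.57), on a probe in the corner.

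The IFIT proteins bind viral RNA and block its translation. IFIT1 had signals of 709 in the control, 1042 with cordycepin and 434 with cordyceps, and its log2 ratios were 0.77 and -0.71. IFIT2 (280, 308 and 235) and IFIT3 (191, 249 and 163) showed the same order of arrays with smaller ratios, of 0.35 and 0.59 with cordycepin and of -0.26 and -0.23 with cordyceps. With median scaling the cordyceps ratios of IFIT2 and IFIT3 changed sign, to 0.01 and 0.04. IFIT5 had the opposite order, with signals of 590, 416 and 659 and log2 ratios of -0.29 and 0.16.

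The MX and IFITM genes encode proteins that block virus entry or trafficking, and none was higher with cordycepin by 1 technical SD. MX1, a dynamin-like GTPase, had signals of 210.1, 110 and 99.3. It was lower than the control on both treated arrays, with log2 ratios of -0.72 for cordycepin and -1.08 for cordyceps, and the second of these passed 2-fold. With normexp background correction the MX1 ratios were -0.20 for cordycepin, within 1 technical SD, and -0.43 for cordyceps. MX2 was dim, with signals of 54.6 and 50.7 in the control and cordycepin arrays. IFITM1 (5920, 4288 and 5202), IFITM2 (21038, 14596 and 12099) and IFITM3 (11281, 8086 and 7558) were highest in the control on their brightest probes. Their log2 ratios were between -0.31 and -0.25 with cordycepin and between -0.80 and -0.19 with cordyceps, and the cordyceps ratio of IFITM1 turned to 0.08 with median scaling. The second IFITM1 probe, in the corner, had signals of 2321, 1674 and 2660 and log2 ratios of -0.26 and 0.20, so it was highest with cordyceps. Whether the probes separate these closely related transcripts was not tested. The ISRE cores printed for IFIT1 and IFITM3 thus stood beside cordycepin ratios on opposite sides of 0.

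Of the transcription factors, STAT2 (5691, 4946 and 6800) and IRF9 (1003, 892 and 1117), which are subunits of ISGF3, had log2 ratios of 0.01 and 0.04 with cordycepin and 0.26 and 0.15 with cordyceps. IRF7, which drives a second wave of interferon genes, had signals of 1471, 2235 and 1608 and a log2 ratio of 0.82 with cordycepin, and its probe lay in the corner. IRF1 (301, 383 and 438) was higher with both treatments, by 0.56 and 0.54. None of the 4 passed 2-fold. PARP9 and PARP14, of the ADP-ribosyltransferase family, had log2 ratios of -0.17 and -0.02 with cordycepin, and PARP9 had -0.59 with cordyceps on its brightest probe and -0.61 on its second. XAF1, a partner of the apoptosis inhibitor XIAP, and EPSTI1 were not detected. IFNB1 (signals of at most 7.51) and IFNL1 (at most 8.84) were well above background on no array.

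With cordyceps, IFI6 was the only member at least 2-fold higher than the control (1 of 34 tested; all genes 4.19%), and MX1 the only member at least 2-fold lower (1 of 34; all genes 3.15%). The median log2 ratio of the 34 members was -0.08 and that of all genes was -0.10. The members were spread to both sides. By at least 1 technical SD, 9 were higher (26.5%; all genes 21.4%), among them ISG15 with 1.61-fold (log2 ratio 0.68) and IRF1, and 13 were lower (38.2%; all genes 39.2%), among them IFIT1, OAS1, OAS3, IFITM2, IFITM3 and PARP9. Of the 29 members outside the corner, none was 2-fold higher (0 of 29; all genes there 2.66%), 1 was 2-fold lower (all genes there 3.09%), and the median was -0.13. Inside the corner, 5 members had a median of 0.57, and the 3233 genes tested there had a median of -0.09, with 10.1% at least 2-fold higher. With cordycepin the same 5 members had a median of 0.82. With corner probes removed and scaling redone on the remaining probes, MX1 was no longer 2-fold lower with cordyceps.

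**Figure D3:**
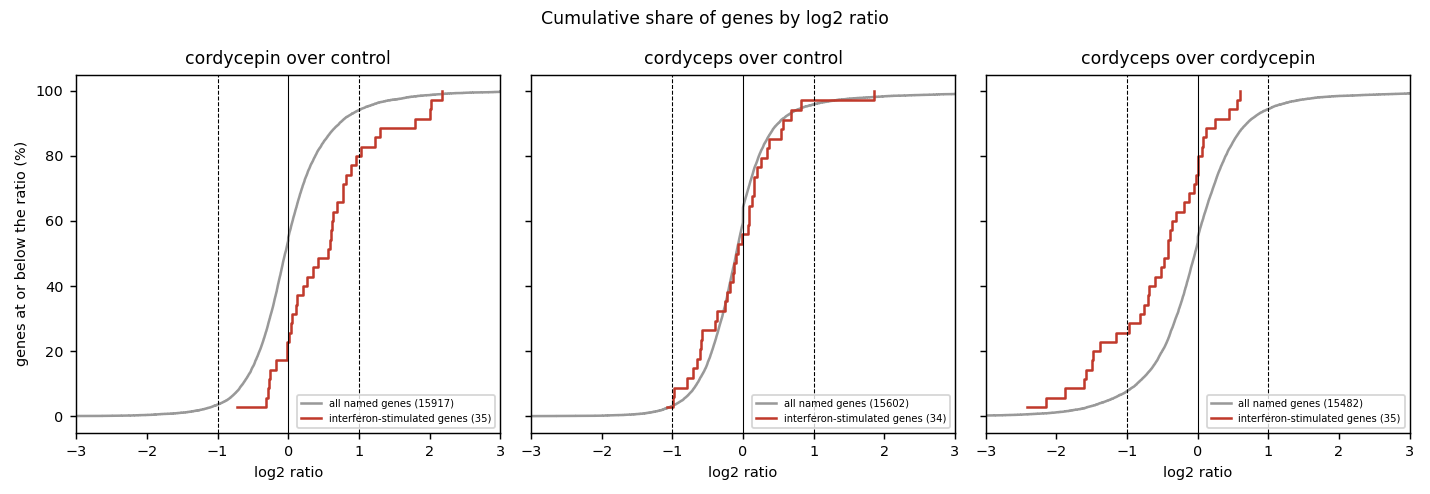
Share of genes (percent) at or below each log2 ratio for the 3 comparisons, with all named genes in grey and the members tested in red; dashed lines mark 2-fold. For cordycepin over control the red line lies right of the grey one over most of its length (medians 0.56 and -0.04), for cordyceps over control the lines nearly coincide (-0.08 and -0.10), and for cordyceps over cordycepin the red line lies left (-0.42 and -0.04).

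The treated arrays were also set against each other, at different doses (60 and 100 μg/mL) and with a cordyceps preparation whose content of cordycepin is not known here. No member was at least 2-fold higher with cordyceps (0 of 35; all genes 5.57%), and 9 were at least 2-fold lower (25.7%; all genes 7.75%). These were ISG15, BST2, HERC5, OAS1, OAS3 and IFIT1 as measured ratios, between -1.87 and -1.15 on the log2 scale, and TRIM22, IFI44 and OAS2 as bounds. TRIM22 had the bound farthest from 0, at least 5.34-fold lower. By this rule the cordycepin array exceeded the cordyceps array in these 9 members, and it was also above the control in each. The share of all genes so called for which the latter held was not counted. The median log2 ratio of the 35 members was -0.42 and that of all genes was -0.04.

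The other genes of the pathway were taken from lists that hold none of the 44 members. These lists, too, were chosen with earlier results of these data known. All 14 genes for interferon receptors and JAK-STAT signaling were tested. With either treatment SOCS1, an inhibitor of JAK kinases, was the only one at least 2-fold higher. This was 7.14% of the list, against 5.95% of all genes with cordycepin and 4.19% with cordyceps. SOCS1 had signals of 52.4, 116 and 115 and log2 ratios of 1.36 with cordycepin and 1.14 with cordyceps. None of the 14 was 2-fold lower with either treatment (all genes 3.57% with cordycepin and 3.15% with cordyceps). The type I receptor chains differed in direction with cordycepin, at -0.75 for IFNAR1 and 0.33 for IFNAR2. The type III receptor gene IFNLR1 had log2 ratios of 0.20 with cordycepin and -0.50 with cordyceps. The median ratio of this list was 0.10 with cordycepin and -0.04 with cordyceps.

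Of 12 tested genes for sensing adaptors and kinases, 2 were at least 2-fold higher with cordycepin (16.7%; all genes 5.95%) and 1 with cordyceps (8.33%; all genes 4.19%). STING1, the adaptor of the cytosolic DNA sensor cGAS, had signals of 215 in the control, 788 with cordycepin and 156 with cordyceps, so that its log2 ratios were 2.09 and -0.46. TLR3, the endosomal receptor for double-stranded RNA, had signals of 31.5, 111 and 79.8 and was higher with both treatments (2.03 and 1.34). CGAS itself and DHX58 (LGP2) had log2 ratios of 0.91 and 0.93 with cordycepin and of -0.47 each with cordyceps, with CGAS on a probe in the corner. MAVS, the adaptor of RIG-I and MDA5, had -0.66 with cordycepin, and the kinase TBK1 had 0.29. The STING1 signals thus followed the order of arrays seen for OAS1, OAS3 and IFIT1.

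Among 19 further interferon genes, 15 had a probe and 4 were detected on at least 1 array. IFNE, an interferon best known from epithelia of the reproductive tract, had signals of 239, 35.2 and 150.1 and was 5.87-fold lower with cordycepin. IFNA4, IFNL2 and IFNW1 were the other detected genes, and none passed 2-fold. The IFNA4 probe lay in the corner, and close paralogs were not separated. None of these 4 was at least 2-fold higher with either treatment, and the interferon genes that were not detected have no ratio. Of 27 tested genes from a list of other interferon-induced genes, 6 were at least 2-fold higher with cordycepin (22.2%; all genes 5.95%) and none was 2-fold lower (all genes 3.57%). LAMP3, a lysosomal membrane protein, had signals of 51.4, 213 and 307 and was higher with both treatments (log2 ratios of 2.26 and 2.58). Guanylate-binding proteins, GTPases that act on intracellular pathogens, made up 4 of the 6, with log2 ratios of 1.22 for GBP2 and 1.11 for GBP3 and bounds of 1.65 for GBP1 and 2.03 for GBP5. The last was IDO1, which degrades tryptophan, with a bound of 1.94. The control array did not detect GBP1, GBP5 and IDO1, so these entered the tested set through the cordycepin array alone. Of the 27 genes, 24 were measured on both arrays. With detection required on both arrays, 3.92% of all genes were at least 2-fold higher with cordycepin. With cordyceps, LAMP3, WARS1 (2.29) and GBP1 (bound of 1.68) were the 3 of 25 tested that were 2-fold higher (all genes 4.19%), the latter pair on probes in the corner. CXCL9, CXCL10 and CXCL11, chemokines induced by interferons, were detected on no array, nor were CIITA and RTP4.

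**Figure D4:**
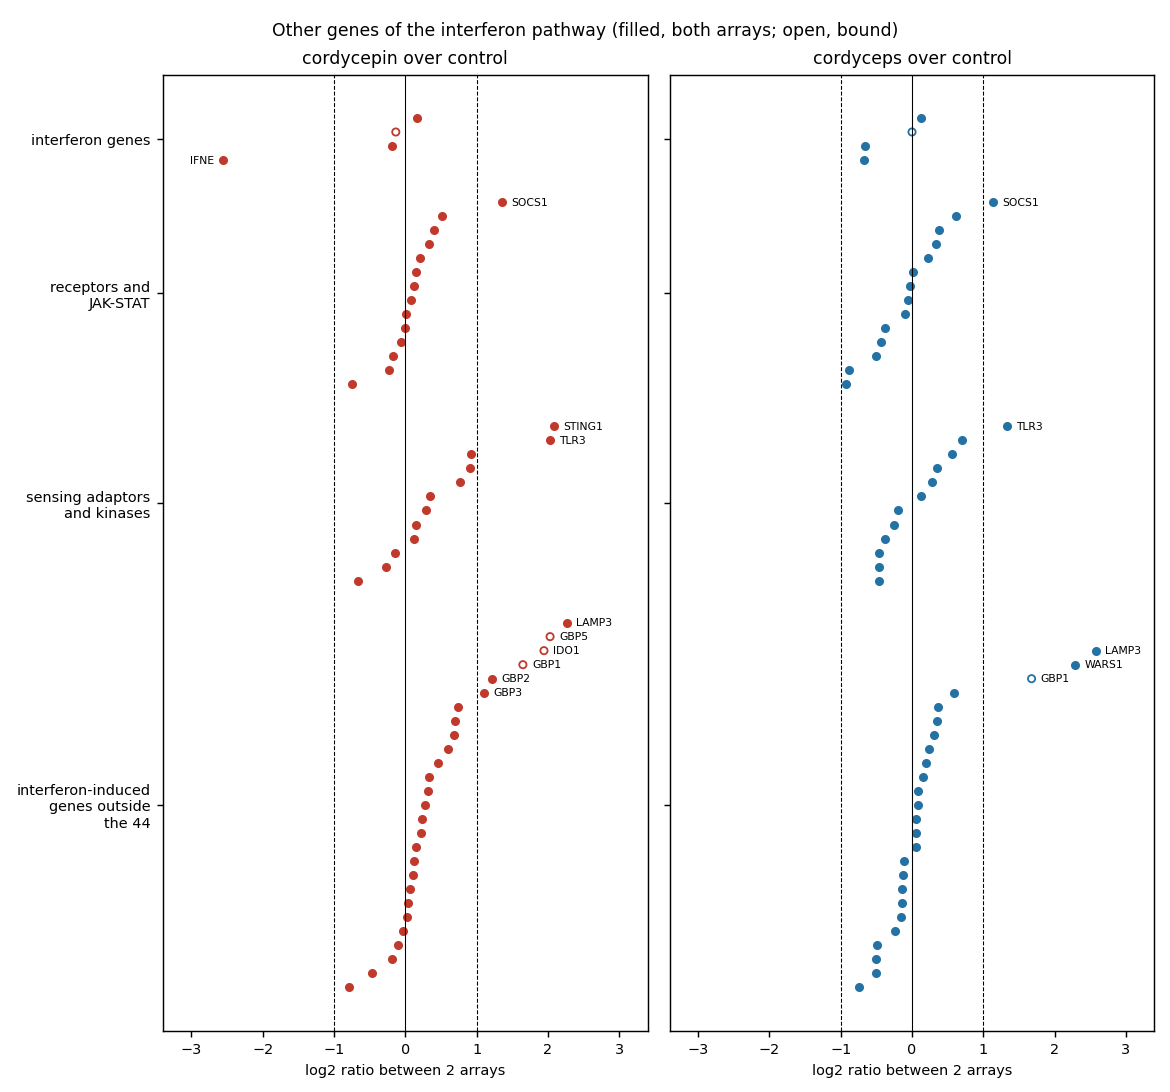
Log2 ratios of interferon genes, receptors and JAK-STAT genes, sensing adaptors and kinases, and interferon-induced genes outside the 44, for cordycepin over control (left) and cordyceps over control (right), sorted within each list; open circles are bounds, dashed lines mark 2-fold and genes beyond them are named. STING1, TLR3, LAMP3, SOCS1 and 5 other genes lie beyond the upper line on the left and IFNE alone beyond the lower one, while 5 genes lie beyond the upper line on the right.

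A list of NF-kB targets was set beside the members. Of 25 tested with cordycepin, 12 passed 2-fold upward (48.0%; all genes 5.95%) and the median log2 ratio was 0.84, and of 24 tested with cordyceps, 9 did (37.5%; all genes 4.19%) and the median was 0.74. The 12 included CSF2 as a bound of 2.47, since the control array did not detect it. CCL5, a chemokine gene with both NF-kB and IRF sites, had signals of 85.5, 929 and 135 and a log2 ratio of 3.66 with cordycepin. The NF-kB list was thus above the control on both treated arrays, whereas the median of the interferon-stimulated genes was above the control with cordycepin and near that of all genes with cordyceps. Whether NF-kB targets and interferon-stimulated genes share a cause was not tested.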

How the data were processed

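Total RNA of 3 A549 cultures was measured on Agilent whole-genome arrays, 1 per condition. The authors deposited 1 scanner file per array, with spot intensity values that Agilent Feature Extraction 11.5.1.1 had background-subtracted and detrended but not scaled between arrays, and a value table. The deposited intensity values of that table equal the mean processed signal of each probe, within 0.001 relative, for at least 58130 of 58201 rows. The methods name GeneSpring for normalization.

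Control spots and outlier spots were left out, log2 processed signals were reduced by the 75th percentile of each array over 58191 probes, and spots of a probe were averaged. Detection required the scanner software's flag for a signal well above background in 50% or more of a probe's spots (28494, 27666 and 24505 probes for control, cordycepin and cordyceps). Saturated spots numbered 0. The precision is limited by 1 array per condition. Probes were named by their design accession through the RefSeq gene table of GRCh38.p14 (31097 of 58191 matched), which served for names only, since the array design uses hg19. The brightest probe stood for a gene. The corner held rows above 240 of 384 and columns above 82 of 164. The members, gene lists, roles and rules were chosen with earlier results of these data known. All members are named, and genes of other lists where they passed 2-fold or belong to the core pathway. Some genes of the lists are not reported here. Exceptions chosen after their values were seen are CGAS, DHX58, UBE2L6 and CCL5. Alternatives were 4 other scalings, normexp background correction on the median spot signal (offset 50), 3 other detection rules, outlier spots kept, the median over probes, the value table, thresholds of 1.5-fold and 3-fold, and leaving out the corner. The calling step was tested on simulated data. Versions were R 4.3.3, limma 3.58.1, Python 3.11.15, pandas 2.3.3, numpy 2.4.6 and scipy 1.17.1.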

Additional observations from a re-analysis of the deposited data

Results flagged for a closer look

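IFIT1, OAS1, OAS2 and OAS3 lay above the control with cordycepin and below it with cordyceps, by at least 2 technical SDs each way, and no other member did. This rule was not applied to all genes, so no share over all genes stands beside it. By at least 1 technical SD, 26.4% of all genes were higher with cordycepin and 39.2% were lower with cordyceps. The technical SDs used, 0.25 and 0.20, are robust estimates. By root mean square they were 0.35 and 0.34, and then OAS1 with cordyceps (-0.61) and OAS2 with cordycepin (0.64) lay within 2 SDs, as OAS2 did with the SD of the dimmest genes (0.34). The log2 ratio of cordyceps over cordycepin was -1.48 for IFIT1, -1.38 for OAS1, a bound of -1.61 for OAS2 and -1.87 for OAS3. With 1 array per treatment the difference was not tested, and both treatments were compared with the same control array. Over the alternatives the direction of both ratios was kept for these genes. The cordycepin ratio lay between 0.51 and 0.82 for IFIT1, 0.50 and 0.81 for OAS1, 0.18 and 0.68 for OAS2, and 0.62 and 1.15 for OAS3. The cordyceps ratio lay between -0.71 and -0.44 for IFIT1, -0.62 and -0.34 for OAS1, -1.46 and -0.13 for OAS2, and -0.99 and -0.72 for OAS3.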

How the results depend on the processing

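With cordycepin, ISG15, BST2, TRIM22 and IFI44 were 2-fold higher under all 12 alternatives and IFI6 under all 11 that keep its probe, while HERC5 was under 10 of 12 (lowest log2 ratio 0.86, normexp) and IFI16 under 9 of 12 (lowest 0.70, normexp). Normexp also lowered IFI44 from 2.01 to 1.12 and TRIM22 from 2.02 to 1.11. The count of 7 higher members became 17 at 1.5-fold and 4 at 3-fold, and that of 0 lower became 1 at 1.5-fold. With cordyceps, the count of 1 higher became 2 with median scaling, 3 with no detection filter, 3 with detection by a positive and significant signal, 3 at 1.5-fold and 0 without the corner. The count of 1 lower (MX1) became 0 with median scaling, 0 with the 75th percentile taken over probes that all 3 arrays detected, 0 with normexp, 0 without the corner, 0 at 3-fold, 2 with no detection filter, 2 with detection by a positive and significant signal and 8 at 1.5-fold. For cordyceps over cordycepin, 0 higher became 2 with median scaling and 1 at 1.5-fold, and 9 lower became 5 with median scaling, 15 at 1.5-fold and 5 at 3-fold. Median scaling shifts every ratio together. It moved the median log2 ratio of all genes from -0.04 to -0.31 for cordycepin and from -0.10 to 0.12 for cordyceps, and that of the members from 0.56 to 0.30 and from -0.08 to 0.19. The median of the members minus that of all genes, which such a shift leaves in place, was 0.60 for cordycepin, and it was 0.39 with normexp, 0.37 with no detection filter and 0.31 with the median over the probes of a gene, where the median of the members was 0.30. The share of 2-fold calls over all genes that were higher went with median scaling from 62.5% to 33.6% for cordycepin, from 57.1% to 82.2% for cordyceps and from 41.8% to 85.2% for cordyceps over cordycepin, and without scaling to 39.4% for cordycepin and 60.7% for cordyceps over cordycepin. The sign changed under some alternative for 8 of 35 members with cordycepin and 9 of 34 with cordyceps, none of them called. No paired analysis was possible because there was 1 array per condition. The 1 array per condition leaves the variation between cultures unmeasured, and signals near background on the cordyceps array have only a bound.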
